A study of Mus musculus with 30 samples.

Results

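The introns described here are longer than 200 nt and were retained in the spliced RNA of mouse embryonic stem cells, of the neural progenitors made from them, or of the neurons that followed. An intron was taken when its event carried 10 or more reads in all 30 libraries and its mean percent spliced in (PSI, here the percent of transcripts that keep the intron) was 10 or more in the unedited parental cells (WTprtl) at 1 or more of 3 stages. Of 164379 intron events longer than 200 nt, 72962 had the reads, and 3287 of these, in 2424 genes, passed the PSI limit. The introns were thus chosen by the WTprtl PSI values, which are given below as a description, without a test. The introns just inside the limit lay in Usb1, Rasa4 and Rock2, with a highest WTprtl stage mean of 10 PSI, and those just outside lay in Dennd4b, Srek1 and Ttc3, with 9.995, 9.99 and 9.99.

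RNA-seq libraries of poly(A) RNA were made from CGR8 cells, a mouse embryonic stem cell line, at 3 stages. These were the stem cells themselves (ESC), aggregates after 8 days of differentiation with 6 µM retinoic acid, which hold neural progenitors (EB8), and neurons 7 days after plating (DIV7). The edited cells were 4 CRISPR-Cas9 lines. Puf60.mEx5.HOM lacks exon 5 of Puf60 on both alleles. Puf60.pEx5.HOM and Puf60.pEx5.HET include that exon constitutively, on both alleles and on 1 allele, and Rbm38KO carries a deletion of about 1300 bp in Rbm38. The parental line WTprtl was not edited. Each of the 15 combinations of line and stage had 2 libraries, lettered A and B, and the labels call the edited lines clonal without saying which clone a letter stands for. With nothing to show separate cultures, the p-values below measure the spread between these libraries, which may be technical.

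Most introns are removed while the transcript is being made, and a transcript that keeps one is commonly held in the nucleus or degraded. Retained introns are known from transcripts of splicing factors and of the CLK kinases, which phosphorylate the serine- and arginine-rich (SR) proteins, and neuronal genes such as Kif5a, Sv2a and Vamp2 keep a 3′ intron in non-neuronal cells through Ptbp1. Puf60 encodes a U2AF-related splicing factor that binds pyrimidine tracts near the 3′ splice site, and Rbm38 encodes an RNA-binding protein of the RRM family.

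The splice sites of introns that carry the results below are printed from GENCODE M21 transcripts that contain the intron (GRCm38, the mm10 build). For each intron the first sequence holds 3 bases of exon and 9 of intron, with the GT that opens the intron in capitals, and the second holds 27 bases of intron and 3 of exon, with the closing AG in capitals. The Clk introns are shown because the paralogues Clk1 and Clk4 keep the same pair of introns, intron 3 and intron 4, on either side of exon 4. Srrm1 and Clk3 intron 3 differed between the Puf60 lines, Vamp2 intron 4 fell at both steps of differentiation, and Sdccag3 intron 6 rose at both.
Clk1 intron 3, chr1:58420212-58421082, minus strand, 5′ site: gggGTatgagtg
Clk1 intron 3, 3′ site: ctggtgccgcccacttgacgtgtccAGaag
Clk4 intron 3, chr11:51272023-51273077, plus strand, 5′ site: tcgGTatgagtg
Clk4 intron 3, 3′ site: cttggtgctgcccacttgccgttccAGaag
Clk1 intron 4, chr1:58419734-58420120, minus strand, 5′ site: gatGTatagaat
Clk1 intron 4, 3′ site: tgaataataattattcctcttttttAGatg
Clk4 intron 4, chr11:51273169-51273559, plus strand, 5′ site: gatGTatagaat
Clk4 intron 4, 3′ site: gacctctctttctctcccttactttAGatg
Clk3 intron 3, chr9:57758724-57760823, minus strand, 5′ site: tcgGTgagtggt
Clk3 intron 3, 3′ site: tggcgtttcggggggcggtgcatgcAGaga
Srrm1 intron 3, chr4:135344670-135346734, minus strand, 5′ site: aagGTatgacat
Srrm1 intron 3, 3′ site: ttttcttcctgtcatgtctttttgcAGaac
Sdccag3 intron 6, chr2:26385610-26385989, minus strand, 5′ site: aatGTatgtaaa
Sdccag3 intron 6, 3′ site: acttacctcagtttttcctctactgAGggt
Vamp2 intron 4, chr11:69090028-69090649, plus strand, 5′ site: tcgGTgagtggg
Vamp2 intron 4, 3′ site: cgtcctcctcttgccctctctccacAGttt
Bases were compared position by position, without gaps. Clk1 and Clk4 had 10 of 12 bases of the 5′ site of intron 3 in common and all 12 of 12 at intron 4. At the 3′ sites the counts were 16 of 30 and 14 of 30. The 3′ sites of intron 3 share longer stretches at shifted positions, which such a count misses.

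The libraries held 23204150 to 38571969 exon-exon junction reads each, and the median intron was covered by 75.5 to 126 reads. At the lowest of these depths a PSI of 14.5 had a 95% Wilson interval of 8.3 to 24.1, and at the highest a PSI of 15.1 had 9.9 to 22.4, which covers counting error only. Pou5f1, a pluripotency factor, lay between 1118 and 1316 RPKM over the 5 ESC groups, and Tubb3, a neuronal tubulin, between 994 and 1181 RPKM at DIV7. The neurons are labelled glutamatergic. The glutamate transporter Slc17a6 stood at 13.7 to 24.0 RPKM there and Slc17a7 at 0.03 to 0.12, against 111 to 156 RPKM for Gad1, an enzyme of GABA synthesis. Rbm38 was at 5.27, 4.1 and 2.67 RPKM in Rbm38KO at ESC, EB8 and DIV7, against 61.7 to 81.9, 28.6 to 34.6 and 6.02 to 10.6 RPKM in the other lines. The 4 edited ESC libraries of letter B stood apart: introns over 200 nt outside the set averaged 0.732 to 0.826 PSI in them and 0.456 to 0.551 PSI in the 4 of letter A. The part of this difference in the results was not tested, and each ESC result below is also given with letter A alone where it moves by over 1.5 times.

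The median PSI of the 3287 introns was higher at EB8 than at ESC in all 5 lines. Over the 8 edited libraries of a stage it lay between 9.09 and 13.4 at ESC, 14.9 and 18.3 at EB8, and 13.97 and 18.4 at DIV7. The 2 WTprtl libraries gave 9.33 and 8.92 at ESC, 12.2 and 14.8 at EB8, and 16.7 and 17.04 at DIV7. The edited ESC and EB8 libraries did not overlap, whereas EB8 and DIV7 did. By the mean of the edited libraries, 1465 introns were under 10 PSI at ESC, 853 at EB8 and 875 at DIV7, and 303, 299 and 299 were at 90 PSI or more. Other long introns moved as well, with a mean PSI of 0.456 to 0.826 in the edited ESC libraries, 0.739 to 1.04 at EB8 and 0.604 to 0.823 at DIV7.

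**Figure D1:**
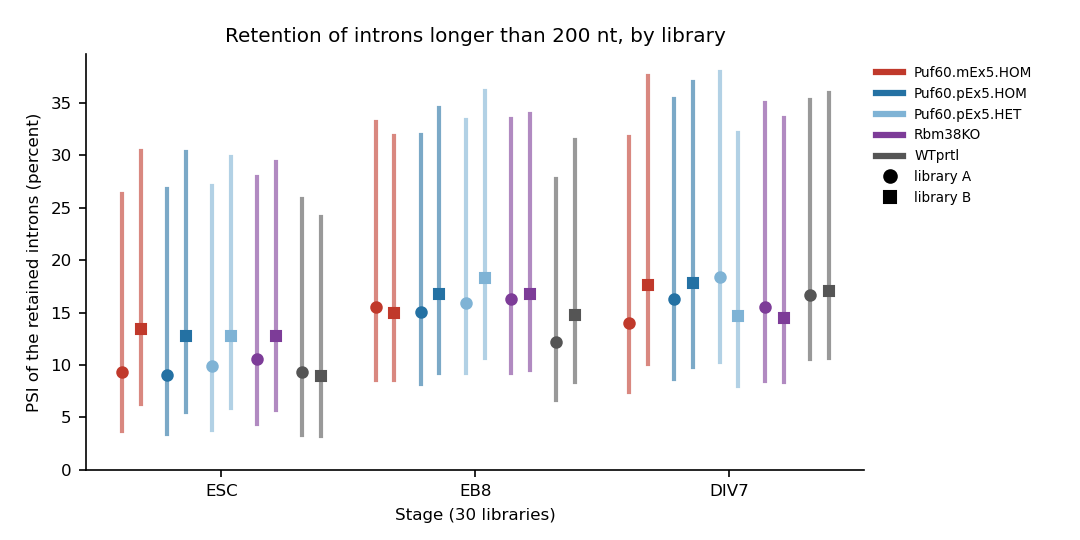
PSI (percent of transcripts that keep the intron) of the 3287 retained introns in each of the 30 libraries, by stage and line; points are the library medians and bars run from the 25th to the 75th percentile over introns. The edited ESC medians lie between 9.09 and 13.4 and the edited EB8 medians between 14.9 and 18.3, with the 4 edited ESC libraries of letter B above the 4 of letter A.

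In the parental cells 1607 of the introns reached 10 PSI at ESC, 2147 at EB8 and 2709 at DIV7. Of all 3287, 1199 reached it at all 3 stages, 270 at ESC alone, 202 at EB8 alone and 838 at DIV7 alone. Retention was spread over many genes, since 1814 genes held 1 such intron and 13 held 5 or more. Cc2d1b, which encodes a calcium-dependent membrane-binding protein of the ESCRT pathway, held 8. Snapc4, a subunit of the complex that transcribes small nuclear RNA genes, held 7, and Anks3, Sdccag3 and Sfi1 held 6 each.

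The intron sequence was not always read through from end to end. With reads at the upstream and downstream exon-intron boundaries summed over the 24 edited libraries, 1527 introns (46.5%) had boundary reads within 2-fold of each other, 465 (14.1%) were 2-fold to 4-fold apart, 595 (18.1%) had over 4 times more downstream and 700 (21.3%) over 4 times more upstream. These classes were drawn after the data had been seen. Boundary reads were over 4-fold apart in 39.4% of the set, in 11.4% of the 69675 other long introns and in 11.3% of the 1049 retained introns of 200 nt or less. An annotated transcript start lay inside 47.7% of the introns read mostly downstream, against 31.8% of those with even reads, and an annotated transcript end lay inside 45.1% of those read mostly upstream, against 31.6%. In both one-sided classes a PSI can thus come from 1 boundary alone.

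The introns with even boundary reads had a median length of 741 nt, those read mostly downstream 1343 nt and those read mostly upstream 2808 nt, against 1573 nt for other long introns. Relative to other long introns the set lay more often in a 5′ UTR (13.1% against 3.46%), in noncoding transcripts (7.24% against 0.194%) and at the first position of the transcript (20.0% against 8.66%). An annotated transcript kept 21.7% of the set and 3.72% of other long introns. Among introns whose sequence such a transcript gave, the median GC content was 51.6% in the set (n = 712), 46.6% in other long introns (n = 2591) and 58.4% in short retained introns (n = 631). The share of measured introns that belonged to the set was lower for longer introns, at 7.3% of introns of 201 to 500 nt, 5.1% of 501 to 1000 nt, 3.86% of 1001 to 2000 nt, 3.61% of 2001 to 5000 nt and 3.38% beyond.

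The introns with the highest PSI were one-sided, so that their PSI does not show the whole intron to be kept. The 6 with the highest mean PSI over the edited libraries lay in Gm37768, 9530026F06Rik, Gm1305, Gas5, Ccnyl1 and Gm37853, and each read 100.0 in all 24. Gm37768 intron 1 had 6911 upstream and 0 downstream boundary reads, and Ccnyl1 intron 1 had 0 upstream and 1477 downstream. Gas5, a host transcript of small nucleolar RNAs, had 3746 and 168 at intron 6. Introns above a mean of 98 PSI, 236 in all, stayed out of the tests together with 3 under 2 PSI, which left 3048.

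At EB8, retention was higher than at ESC in many more introns than it was lower. Limma, with Benjamini-Hochberg adjustment over all 38324 splicing events fitted, called 669 of the 3048 introns higher and 285 lower in the edited lines (adjusted p under 0.05 and at least 10 PSI points), which is 21.9% and 9.35% of them. Over all events the shares called were 5.75% higher and 3.66% lower. The median difference was 4.62 PSI points over the introns and 0.608 over all events, and 75.2% of the introns had a positive difference. That share was 59.7% of all events, 78.9% of fitted introns outside the set and 81.9% of short retained introns. The median log2 ratio difference was 0.630 in the set, 0.471 in introns outside it and 0.632 in short retained introns. With log ratios centred on the introns outside the set, 567 were called higher and 286 lower, the PSI differences being left uncentred. With the edited ESC libraries of letter A alone the counts were 806 higher and 277 lower, and with letter B alone 528 and 301. Each stage entered with the 8 libraries of the 4 edited lines. These libraries did not choose the introns, but they pass through the same stages as WTprtl. In WTprtl 202 introns passed the PSI limit at EB8 alone and 838 at DIV7 alone, against 270 at ESC alone. Such a choice can favour rises from ESC, and its part in the counts was not tested.

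The direction differed by boundary class. Of the 1503 tested introns with even boundary reads, 374 were called higher and 53 lower, with a median difference of 5.78 points. Of 460 introns 2-fold to 4-fold apart, 121 were higher and 42 lower. Introns read mostly downstream gave 101 higher and 78 lower of 497, with a median of 2.19 points, and introns read mostly upstream gave 73 higher and 112 lower of 588, with a median of 0.76. By length, the introns of 201 to 500 nt had 190 higher and 43 lower, whereas those over 5000 nt had 53 higher and 78 lower. The share with even boundary reads was 64.9% among those of 201 to 500 nt and 8.93% among the longest.

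**Figure D2:**
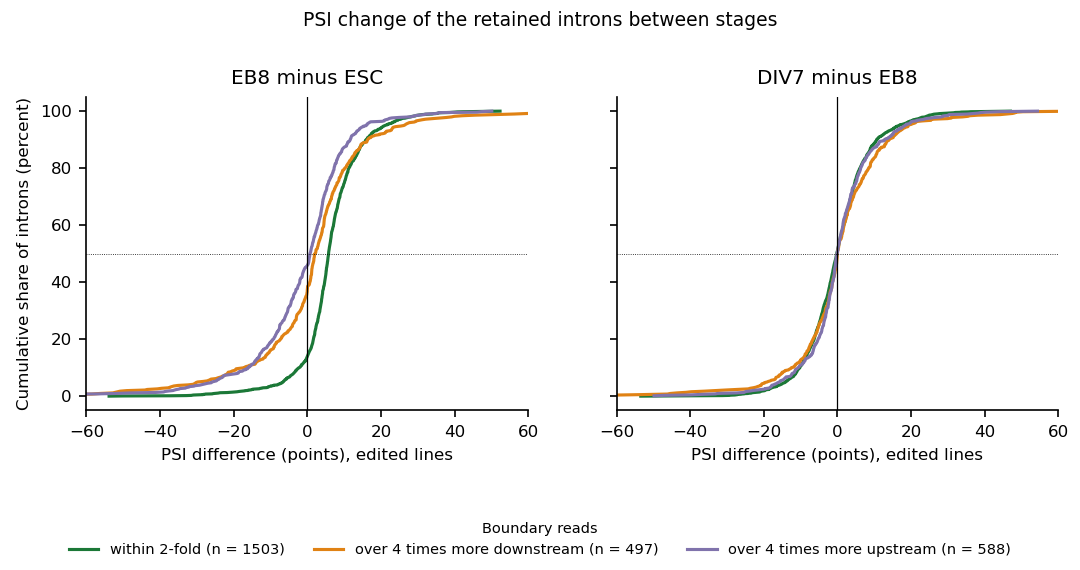
Cumulative share (percent) of tested retained introns against the PSI difference in points over the edited lines, left for EB8 minus ESC and right for DIV7 minus EB8, with a line for even boundary reads and for each one-sided class (introns 2-fold to 4-fold apart are not drawn); the dotted line marks the median and the axis stops at 60 points. On the left the curve of the introns with even boundary reads crosses the median at 5.78 points, against 2.19 for those read mostly downstream and 0.76 for those read mostly upstream, and on the right the curves lie close to each other.

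Among introns in genes of the splicing machinery, most calls at EB8 were higher than at ESC. Of 16 introns in genes for SR proteins and SR-related factors, 7 rose and 0 fell, with a median difference of 5.74 points. Of 21 introns in genes of spliceosome components, 9 rose and 0 fell, with a median of 6.76 points. In genes for CLK, DYRK, SRPK and CDK splicing kinases 6 of 11 rose and 0 fell, with a median of 10.9 points, and 5 of 14 rose and 3 fell among other splicing regulators. Of 9 tested hnRNP introns 3 rose and 0 fell. In nonsense-mediated decay and RNA export genes 1 of 5 rose and 0 fell, and in genes of RNA methylation and O-GlcNAc 1 of 4 rose and 0 fell. The introns of the kinase list with even boundary reads gave 6 of 8 rising, those of the spliceosome list 7 of 11 and those of the SR list 3 of 7. Beside these stand the 21.9% called higher and the median of 4.62 points over all introns of the set, and the 24.9% and 5.78 points over those with even boundary reads. The difference between any list and the set was not tested. Genes were placed on these lists with earlier results of these data known.

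Clk1 and Clk4 encode CDC2-like kinases that act on SR proteins. Clk1 intron 3 had a lowest, median and highest PSI of 7.34, 10.2 and 17.3 over the 8 edited ESC libraries, 23.3, 31.1 and 38.6 at EB8, and 19.2, 30.6 and 45.7 at DIV7. The WTprtl libraries gave 7.54 and 5.62 at ESC, 23.4 and 25.8 at EB8, and 32.9 and 37.4 at DIV7. Every EB8 library lay above every ESC library of the edited lines, with a difference of 19.55 points (adjusted p = 2.35e-08, limma), while EB8 and DIV7 overlapped (difference -0.68 points, adjusted p = 0.869). Clk4 intron 3 had 11.9, 17.8 and 26.7 PSI at ESC, 34.8, 39.9 and 49.5 at EB8, and 25.8, 30.1 and 52.0 at DIV7. Its EB8 and ESC libraries did not overlap either (22.71 points, adjusted p = 2.06e-08, limma). Intron 4 moved with intron 3 in both genes, by 16.23 points in Clk1 and 22.68 in Clk4 at the first step. All 4 introns had even boundary reads. The Clk1 transcript itself averaged 60.9 RPKM in the edited ESC groups and 60.1 RPKM at EB8, and the Clk4 transcript 38.8 RPKM at ESC and 62.2 RPKM at EB8.

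The introns of SR, spliceosome and related genes named next are among those called higher, and 9 of the 16 introns of the SR list and 12 of the 21 of the spliceosome list were called in neither direction. Srsf5, an SR protein, was one of these at intron 1, with means of 40.31, 42.03 and 43.55 PSI at ESC, EB8 and DIV7 (1.72 points at the first step, adjusted p = 0.491, limma) and 13621 upstream and 217 downstream boundary reads. Srsf6, an SR protein, had a mean PSI of 6.60 at ESC, 24.1 at EB8 and 12.9 at DIV7 at intron 2, with EB8 above both other stages. Srrm2, a scaffold protein of the spliceosome and nuclear speckles, kept intron 12 at 6.10, 26.5 and 18.7 PSI, and its introns 9 and 11 gave 5.37, 24.0 and 19.8 and 4.52, 22.9 and 16.7. Srrm1 intron 3 had a lowest, median and highest PSI of 0.47, 1.48 and 5.08 at ESC and 5.90, 11.2 and 19.6 at EB8, a difference of 10.45 points (adjusted p = 7.51e-10, limma). It fell short of the 10-point limit without the EB8 library of Puf60.pEx5.HET replicate B. Sf3b1, the U2 snRNP subunit that holds the branch site, rose at intron 4, with means of 3.52, 14.2 and 13 PSI. Hnrnpa2b1 intron 9 averaged 19.1, 46.3 and 57.2 PSI. Rbm5, a regulator of splicing in apoptosis genes, kept intron 5 at 8.63, 32.6 and 36.4 PSI and intron 6 at 12.3, 36.9 and 36.8 PSI. The introns of Srsf6 to Rbm5 were all called higher at EB8. Boundary reads were even in Srrm1, Sf3b1 and both Rbm5 introns and over 2-fold apart in Srsf6, Srrm2 and Hnrnpa2b1.

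Introns of genes that act after splicing rose too. Nxf1, the main mRNA export receptor, whose intron 10 is chr19:8765032-8766796 on the plus strand, had a lowest, median and highest PSI of 6.54, 12.7 and 15.9 at ESC, 22.4, 28.8 and 35.8 at EB8, and 33.2, 38.8 and 48.0 at DIV7. Its EB8 libraries all lay above the ESC libraries (17.24 points, adjusted p = 2.23e-07, limma). The second step, 10.48 points, stood close to the 10-point limit. Ogt, the O-GlcNAc transferase, had 4.21, 12.1 and 18.97 PSI at intron 4 at ESC, 40.2, 48.0 and 56.8 at EB8 and 28.1, 35.8 and 55.5 at DIV7, a first difference of 35.65 points (adjusted p = 6.14e-09, limma). All EB8 libraries lay above all ESC libraries. Both introns had even boundary reads.

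Genes of neuronal function went the other way. All 3 introns on the Ptbp1-regulated list fell at EB8, with -50.16 points in Kif5a, -25.71 in Sv2a and -12.83 in Vamp2. Of 21 introns in synaptic and neuronal genes 11 fell and 1 rose, with a median difference of -12.96 points. Of the 5 with even boundary reads, 1 fell and 0 rose, and their median difference was 2.05 points. Over the whole set 9.35% of the tested introns were called lower. An intron that passed the PSI limit through ESC alone was likely to fall from there, which leans such counts to falls. The part of this choice in the neuronal counts was not tested. Fewer cells of a type that keeps an intron and fewer transcripts kept per cell cannot be told apart in these bulk libraries.

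Kif5a encodes a kinesin heavy chain of neurons. Its intron 28, chr10:127228422-127229744 in the 3′ UTR, had a lowest, median and highest PSI of 46.7, 53.1 and 71.4 over the edited ESC libraries, 4.29, 6.28 and 8.77 at EB8, and 0.60, 0.88 and 1.35 at DIV7. No stage overlapped another, and the differences were -50.16 points (adjusted p = 1.11e-15, limma) and -5.31 points (adjusted p = 4.86e-13). Kif5a transcripts stood at 2.70 RPKM at ESC, 23.8 at EB8 and 109 at DIV7. Vamp2, the synaptic vesicle v-SNARE, had 17.8, 22.4 and 38.1 PSI at intron 4 at ESC, 6.66, 11.4 and 18.6 at EB8 and 0.46, 0.66 and 0.90 at DIV7, and was called lower at both steps (-12.83 points, adjusted p = 4.02e-07, and -10.78 points, adjusted p = 9.85e-17, limma). Its ESC and EB8 libraries overlapped and its DIV7 libraries lay below both. Sv2a, a synaptic vesicle protein, fell to a median of 2.30 PSI at EB8, against 28.1 at ESC, with 11 reads in its shallowest library. Boundary reads were even in Kif5a and Sv2a and over 2-fold apart in Vamp2.

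Introns of other neuronal genes were lower at EB8 as well. Dlg4, which encodes PSD-95, averaged 48.5 PSI at intron 8 at ESC, 4.84 at EB8 and 0.82 at DIV7. Nrxn2 intron 19 averaged 43.8, 0.37 and 0.13 PSI and Gabbr1 intron 12 averaged 30.9, 10.5 and 2.16 PSI. Syn1 intron 12 averaged 77.4 PSI at ESC and then stayed at 44.0 and 41.1. Of these the Gabbr1 intron had even boundary reads, Dlg4 and Syn1 were over 2-fold apart, and Nrxn2 was read mostly downstream. Host transcripts of small RNAs were lower at EB8 in 5 of 21 tested introns and higher in 1, beside 9.35% lower and 21.9% higher over the set. Among them Snhg3 intron 2 averaged 60.8, 23.6 and 29.5 PSI, with even boundary reads.

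**Figure D3:**
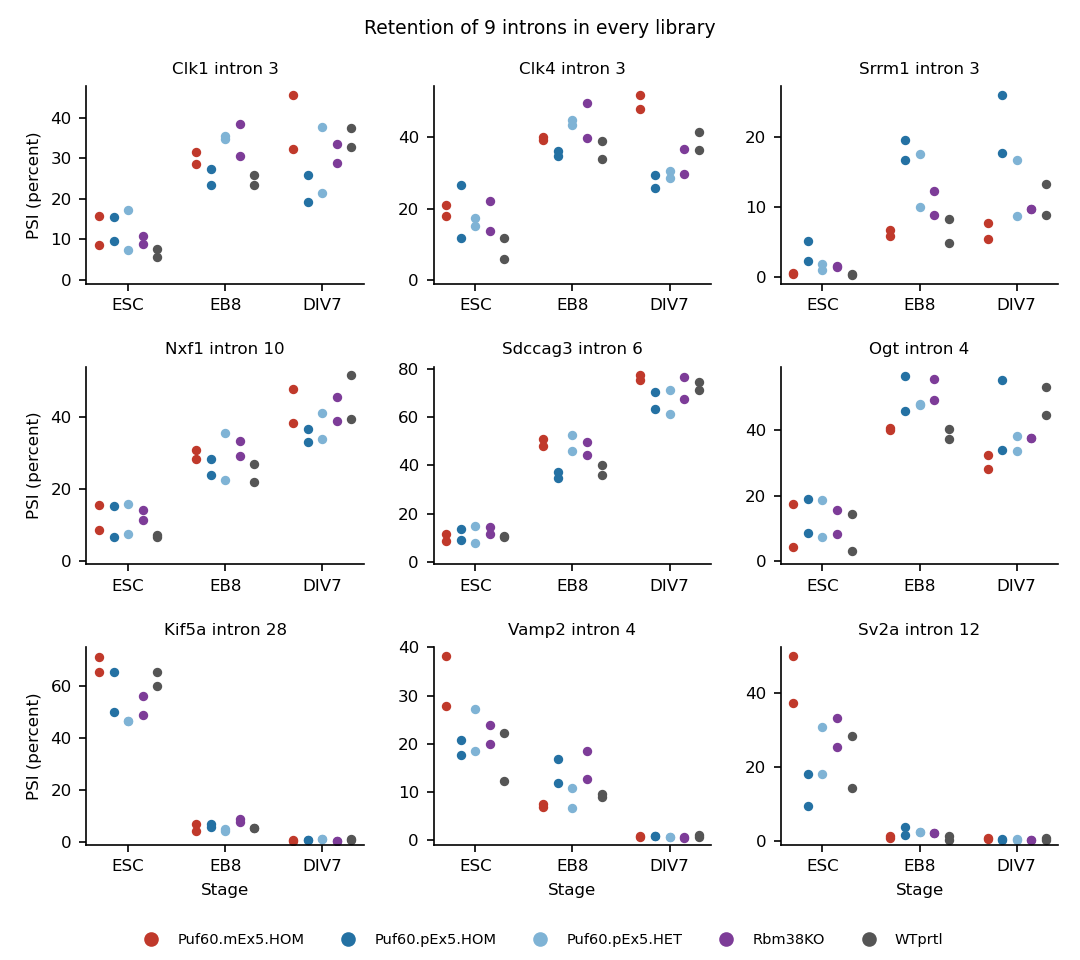
PSI (percent) at ESC, EB8 and DIV7 for 9 introns, 1 point for each library, coloured by line. Clk1 and Clk4 intron 3 lie higher in every edited EB8 library than in any edited ESC library, and Kif5a intron 28 lies lower at each stage than at the one before.

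The largest changes were in introns with uneven boundary reads. At EB8 the 8 introns that rose most among those whose libraries did not overlap lay in Zfp219 (75 points), Rapgef5 (71.15), Cabp1 (65.95), Pfkp (61.9), Carmil2 (60.83), Dok4 (60.03), Calca (58.54) and Fbxo27 (56.22). The 8 that fell most lay in Celf4 (-93.13 points), Pou6f1 (-75.15), Lrrc24 (-73.01), Tenm3 (-72.96), Klhl13 (-71.85), Meg3 (-69.44), Gabbr1 intron 4 (-68.76) and Palld (-68.58). All 16 had boundary reads over 2-fold apart. Zfp219 intron 1, in the 5′ UTR, had 14 upstream and 2156 downstream boundary reads and held 8 annotated transcript starts. Calca, the calcitonin and CGRP gene, had 0.41, 1.96 and 2.62 PSI at intron 3 at ESC, 55.7, 59.3 and 66.0 at EB8, and 0.0, 1.03 and 2.42 at DIV7. Only its EB8 libraries were high, and 4 annotated transcript ends lay inside that intron. Tenm3 intron 11 read 100.0 PSI in all 8 edited ESC libraries with 338 upstream and 0 downstream boundary reads over the series.

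At DIV7, rises and falls over EB8 were of like number. Of the 3048 introns 376 were higher (12.3%) and 325 lower (10.7%), against 5.64% and 4.41% of all 38324 events, and the median difference was -0.18 points against -0.10 over all events. Retained introns of 200 nt or less gave 213 higher and 31 lower of 1007, with a median of 4.13 points, so that most of their calls were higher. The difference between the long and the short set was not tested. At the first step the short introns had 121 higher and 31 lower. Introns with even boundary reads gave 165 higher and 152 lower at DIV7, and no boundary class had 1 direction outnumber the other by over 1.5 times.

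The introns that rose most at DIV7 lay in Tpm1 (64.66 points), Ap1g2 (63.03), Araf (54.32), Eps15 (50.33), Atl2 (48.21), Ehbp1l1 (48.2), Kansl3 (47.87) and Taok3 (47.54). Among those that fell most were introns of Celsr2 (-65.7 points), Sgsm1 (-62.18), Calca (-59.24), Tmem145 (-53.43), Pde4dip (-49.83), Stau2 (-47.26) and Sugp2 (-46.27). Tmem145 intron 14 and Sugp2 intron 10 had even boundary reads, at 1468 upstream and 1616 downstream and at 1918 and 1134. Tmem145 had a lowest, median and highest PSI of 93.5, 100.0 and 100.0 at ESC, 65.7, 73.6 and 81.2 at EB8, and 17.1, 19.7 and 25.7 at DIV7, with no overlap between any of the stages. Tpm1, a tropomyosin, had 139 and 3728 boundary reads at its last intron, which holds 8 annotated transcript ends, and gave 0.63, 1.44 and 2.13 PSI at ESC, 4.35, 12.9 and 32.4 at EB8 and 69.1, 80.6 and 85.6 at DIV7.

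Over both steps, 131 introns were called higher at each, 55 lower at each, 117 higher and then lower, and 8 lower and then higher. Another 421 were called higher at EB8 and not called at DIV7, and 1704 were called at neither step. The share of all events with each of these patterns was not counted, so the counts do not set the introns apart from other events. Sdccag3 showed the steady rise in 1 gene. Its intron 6 had a lowest, median and highest PSI of 7.66, 11.6 and 14.8 at ESC, 34.8, 46.8 and 52.6 at EB8 and 61.2, 70.7 and 77.2 at DIV7, with no overlap between stages and differences of 33.9 points (adjusted p = 2.64e-13, limma) and 24.87 points (adjusted p = 3.72e-10). Of the 6 introns of Sdccag3 4 rose at EB8 and 3 at DIV7, and 0 fell at either. Ccnl2, a cyclin of splicing kinases, also rose at both steps at intron 5, which was read mostly downstream, to a median of 53.0 PSI at EB8, against 34 at ESC, and to 69.3 at DIV7. Mdm4, an inhibitor of p53, went up and down at introns 6 and 7, with means of 44.8, 60.5 and 33.4 PSI and of 41.6, 59.5 and 33.4 PSI.

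Of the 13 genes with 5 or more retained introns, 7 had a positive difference in all of them at EB8. In Cc2d1b all 8 had a positive difference at EB8 and 3 were called higher, with 0 lower. In Sfi1, which encodes a centrin-binding protein of centrosomes, 1 of 6 was called higher at EB8 and 1 lower, and it was the only one of the 13 with calls both ways at that step. Chromatin regulators had 5 higher and 3 lower of 23 tested introns, and cell cycle and DNA repair genes 8 higher and 1 lower of 22. Both lists had calls each way at DIV7 as well, with 2 higher and 2 lower and with 6 higher and 4 lower. Over the set 21.9% were called higher and 9.35% lower at EB8, and 12.3% and 10.7% at DIV7. The difference between these lists and the set was not tested.

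The level of the host transcript was set beside the calls. Genes whose introns were called higher at EB8 had a median log2 RPKM change of -0.01 (656 introns), those not called 0.02 (2056) and those called lower 0.31 (281). Among introns with even boundary reads the medians were -0.05 (367), 0.06 (1064) and 0.73 (52), and 35 of the 52 called lower lay in a gene with a higher RPKM. At the second step the medians were -0.07 (370), -0.16 (2301) and 0.35 (322), and 205 of the 322 introns called lower lay in a gene with a higher RPKM.

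The 2 homozygous Puf60 lines, in which exon 5 of Puf60 is absent or always included, were compared at each stage. An effect of the exon cannot be told apart from other differences between these clonal lines. Puf60.mEx5.HOM over Puf60.pEx5.HOM gave 10 higher and 31 lower of 3048 introns at ESC (0.712% and 0.681% of all events), 69 higher and 91 lower at EB8 (2.27% and 1.8%), and 34 higher and 51 lower at DIV7 (0.955% and 0.882%). At ESC the count was 9 with letter A alone and 25 without the library Puf60.pEx5.HOM replicate B, against 41. At EB8 it was 98 without Puf60.mEx5.HOM replicate A, 80 without its replicate B and 89 without Puf60.pEx5.HOM replicate B, against 160, and at DIV7 45 without Puf60.pEx5.HOM replicate A and 33 without Puf60.mEx5.HOM replicate B, against 85. With the log ratios of each library centred on the introns outside the set, EB8 gave 79 higher and 72 lower. Only the p-values were centred there, and the direction and size of the PSI differences were not. The surplus of lower calls also turned without Puf60.mEx5.HOM replicate A, with 16 higher and 15 lower at ESC and 34 and 27 at DIV7. The deposited strings hold a balance p, a measure of how evenly the boundaries were read. Among the 1399 introns with a low balance p in fewer than 2 libraries, the surplus turned to 4 higher and 3 lower at ESC, 22 and 19 at EB8, and 15 and 10 at DIV7. Puf60 itself was at 106, 110 and 78.0 RPKM in Puf60.mEx5.HOM at ESC, EB8 and DIV7, against 145 to 148, 124 to 137 and 105 to 110 RPKM in the other lines. Neuronal transcripts differed between these lines at EB8 too, with all 4 markers highest in Puf60.mEx5.HOM and lowest in Puf60.pEx5.HOM of the 5 lines. Rbfox3, a neuronal splicing regulator, was at 46.6 RPKM in Puf60.mEx5.HOM and 10.3 in Puf60.pEx5.HOM, and Syp, a synaptic vesicle protein, at 92.9 RPKM in Puf60.mEx5.HOM and 29.02 in Puf60.pEx5.HOM. Summed with Tubb3 and Map2, they gave 109, 1101 and 2151 RPKM in Puf60.mEx5.HOM at ESC, EB8 and DIV7. In Puf60.pEx5.HOM the sums were 98.8, 531 and 2024 RPKM. Some other markers were uneven over the 5 lines at DIV7. Pou5f1 ran from 1.76 to 34.8 RPKM, the astrocyte marker Gfap from 3.04 to 60.2 and the fibroblast marker Col1a1 from 8.25 to 86.0. The oligodendrocyte marker Mbp ran from 10.6 to 12.4 RPKM. The part of all these markers in the result was not tested.

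The heterozygous line lay between the homozygotes in most of these introns, in 35 of 41 at ESC, 152 of 160 at EB8 and 76 of 85 at DIV7. Rbm38KO, whose Puf60 gene was not edited, lay between them in 34, 145 and 80. Of the introns called lower in Puf60.mEx5.HOM, Puf60.pEx5.HOM was the further from Rbm38KO in 29 of 31 at ESC, 49 of 91 at EB8 and 39 of 51 at DIV7. With even boundary reads these were 8 of 8, 17 of 35 and 13 of 20. Of the introns called higher in Puf60.mEx5.HOM, Puf60.pEx5.HOM was the further in 7 of 10, 28 of 69 and 19 of 34, and Puf60.mEx5.HOM in 3, 41 and 15. Among the introns called lower at ESC the median distances from Rbm38KO were 2.06 points for Puf60.mEx5.HOM and 13.6 for Puf60.pEx5.HOM. These are descriptions, since the same libraries made the calls.

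Ift20, a subunit of the intraflagellar transport complex, was called lower in Puf60.mEx5.HOM at all 3 stages. Its intron 5, chr11:78540999-78541360 on the plus strand and 362 nt long, had 719 upstream and 223 downstream boundary reads. At ESC it stood at 3.93 and 3.95 PSI in Puf60.mEx5.HOM and 29.7 and 38.7 in Puf60.pEx5.HOM. Puf60.pEx5.HET gave 8.77 and 3.87, Rbm38KO 4.74 and 3.08 and WTprtl 5.38 and 3.34. Puf60.pEx5.HOM alone was high, and the same held at EB8, with 7.60 and 10.9 in Puf60.mEx5.HOM and 46.9 and 48.5 in Puf60.pEx5.HOM, against 8.30 to 17.4 in the other edited lines. At DIV7 Puf60.mEx5.HOM gave 5.57 and 5.76 and Puf60.pEx5.HOM 35.6 and 36.4. The differences were -30.26 points (adjusted p = 7.8e-07, limma), -38.4 points (adjusted p = 4.88e-08) and -30.36 points (adjusted p = 2.25e-08).

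Calls in the same direction at 2 or more stages were made for 28 introns that were lower in Puf60.mEx5.HOM and 12 that were higher. The share of all events with such repeated calls was not counted. Of these, 9 were lower at all 3 stages, in Sept8, Ift20, Pdxdc1, Glyr1, H13, Arhgap1, Atxn2, Zdhhc4 and Luc7l2, and 1, in Zfp57, was higher at all 3. Under other settings or with a library left out, Ift20 and Pdxdc1 kept their calls throughout. The call of Atxn2 at ESC fell short in 9 of 16, that of Zdhhc4 at EB8 in 8 of 14 and that of Zfp57 at DIV7 in 6 of 14. Luc7l2, a U1 snRNP-associated factor, had -24.94, -20.52 and -13.97 points at its last intron, with 8805 upstream and 149 downstream boundary reads. Pdxdc1 intron 23 stood at 4.33 and 9.49 PSI in Puf60.mEx5.HOM and 23.03 and 22.3 in Puf60.pEx5.HOM at ESC. At EB8 it gave 6.86 and 6.13 in Puf60.mEx5.HOM and 18.4 and 17.8 in Puf60.pEx5.HOM, and at DIV7 5.96 and 4.0 in Puf60.mEx5.HOM and 16.7 and 17.3 in Puf60.pEx5.HOM. The pairs did not overlap at any stage, and its boundary reads were even (758 and 474). H13, the signal peptide peptidase, differed by -16.23, -20.49 and -20.52 points at intron 3, also with even boundary reads.

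Among introns that were higher in Puf60.mEx5.HOM, Tmem132a intron 10 stood at 29.9 and 33.3 PSI in Puf60.mEx5.HOM and 10.4 and 12.4 in Puf60.pEx5.HOM at EB8, and at 33.5 and 45.7 in Puf60.mEx5.HOM and 15.0 and 17.3 in Puf60.pEx5.HOM at DIV7. The other lines lay between. The differences were 20.14 points (adjusted p = 3.04e-06, limma) and 23.51 points (adjusted p = 5.04e-06). Meaf6, a subunit of histone acetyltransferase complexes, showed the widest gap, at intron 5 at DIV7, with 69.8 and 80.2 PSI in Puf60.mEx5.HOM and 15.0 and 23.4 in Puf60.pEx5.HOM (55.76 points, adjusted p = 1.55e-05, limma). Its boundary reads were 414 upstream and 143 downstream. At EB8 the difference was 24.38 points and at ESC 6.87. Hmgn3, a nucleosome-binding protein, had 60.2 and 68.1 PSI at intron 5 in Puf60.mEx5.HOM at EB8 and 18.5 and 30.4 in Puf60.pEx5.HOM (39.72 points, adjusted p = 1.53e-05, limma).

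Among genes of splicing, Srrm1 and Clk3 each had an intron called at EB8 and DIV7, both with even boundary reads. Srrm1 intron 3 stood at 6.77 and 5.90 PSI in Puf60.mEx5.HOM and 16.7 and 19.6 in Puf60.pEx5.HOM at EB8, and at 5.49 and 7.69 in Puf60.mEx5.HOM and 17.7 and 25.9 in Puf60.pEx5.HOM at DIV7 (-11.81 points, adjusted p = 0.00381, and -15.22 points, adjusted p = 0.0153, limma). Clk3 intron 3 stood at 11.6 and 11.1 PSI in Puf60.mEx5.HOM and 20.7 and 24.5 in Puf60.pEx5.HOM at EB8, and at 9.93 and 15.4 in Puf60.mEx5.HOM and 26.1 and 25 in Puf60.pEx5.HOM at DIV7 (-11.26 points, adjusted p = 0.0101, and -12.9 points, adjusted p = 0.0408, limma). The pairs did not overlap, and both genes lost calls when single libraries were left out. In the SR list 0 of 16 tested introns were higher and 1 lower at each of EB8 and DIV7. In the spliceosome list 1 of 21 was lower at each stage. In the kinase list 1 of 11 was lower at EB8, and 1 higher and 1 lower at DIV7. Among other splicing regulators 1 of 14 was higher at each of EB8 and DIV7. Over the set 0.328% were higher and 1.02% lower at ESC, 2.26% and 2.99% at EB8, and 1.12% and 1.67% at DIV7. The difference between any list and the set was not tested here.

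**Figure D4:**
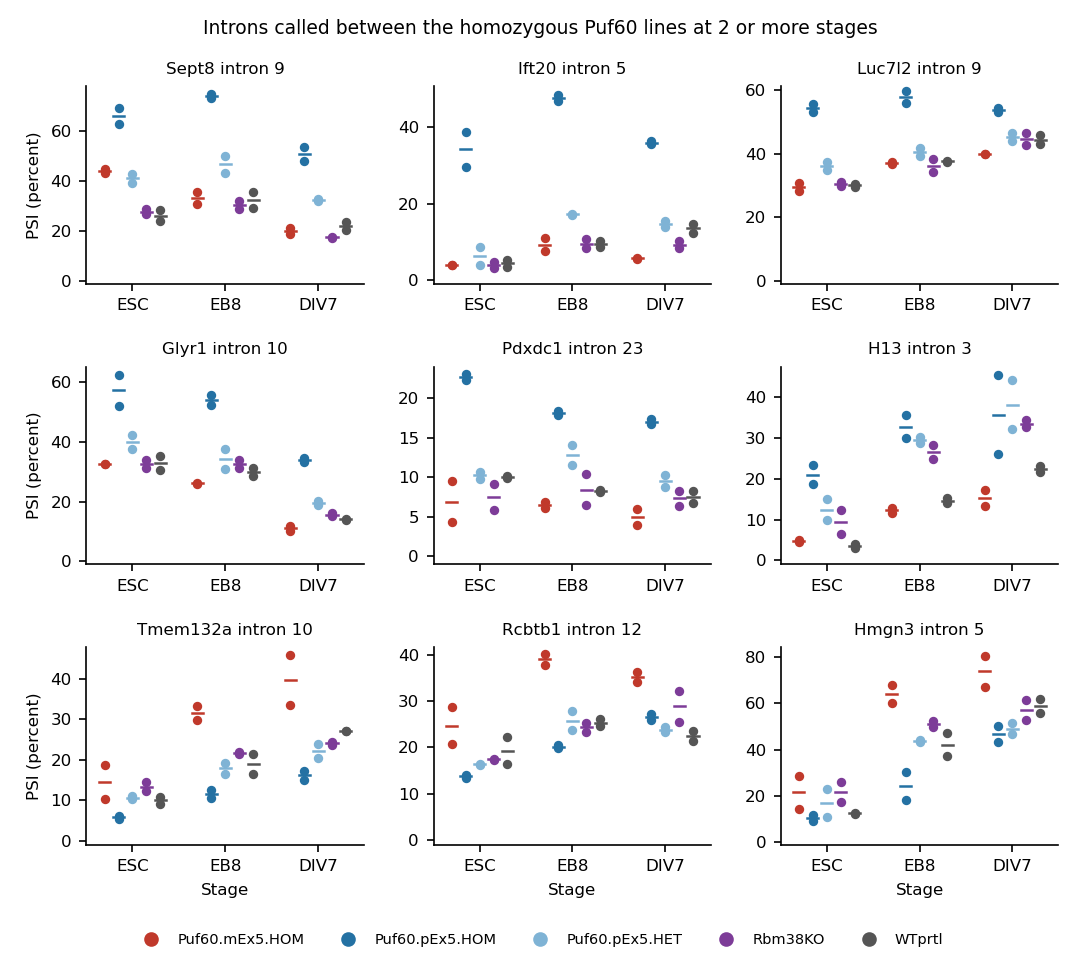
PSI (percent) by stage for 9 introns called between the homozygous Puf60 lines at 2 or more stages, 1 point for each library, coloured by line, with a bar at the mean of each pair. Ift20 intron 5 is at 29.7 or more in every Puf60.pEx5.HOM library and at 17.4 or less in every library of the other edited lines.

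Rbm38KO differed from the Puf60 lines in few introns. The Puf60 lines are edited themselves and are not a control, so the counts do not measure the effect of losing Rbm38. Against the 3 Puf60 lines as 1 group, limma called 0 higher and 1 lower at ESC (0.0287% and 0.0183% of all events), 1 higher and 2 lower at EB8 (0.0339% and 0.0313%), and 0 higher and 2 lower at DIV7 (0.00522% and 0.0104%). The counts at an unadjusted p under 0.05 were 143, 252 and 178. Sept8, which encodes a septin, was the intron called at every stage. Its intron 9, chr11:53537916-53541209 on the plus strand, had 289 upstream and 2314 downstream boundary reads. At EB8 it stood at 28.8 and 32.2 PSI in Rbm38KO, 35.6 and 30.9 in Puf60.mEx5.HOM, 73.1 and 75.1 in Puf60.pEx5.HOM, 50.3 and 43.3 in Puf60.pEx5.HET, and 29.5 and 35.9 in WTprtl. At that stage both lines with constitutive exon 5 lay above the other 3. At ESC it stood at 26.9 and 28.8 PSI in Rbm38KO, 44.9 and 43.3 in Puf60.mEx5.HOM, 63.0 and 69.2 in Puf60.pEx5.HOM, 39.5 and 43.0 in Puf60.pEx5.HET, and 28.4 and 24.0 in WTprtl, so that Puf60.mEx5.HOM lay above Puf60.pEx5.HET there. The differences of Rbm38KO from the Puf60 lines ran over the stages as -22.66 points (adjusted p = 0.00106, limma), -20.86 points (adjusted p = 0.000294) and -16.86 points (adjusted p = 0.0154).

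The other calls were Ift20 at EB8 (-15.22 points, adjusted p = 0.0108, limma), Ppp3cb at the same stage (10.95 points, adjusted p = 0.0241) and, at DIV7, Dlk1 (-37.92 points, adjusted p = 0.0384). Ift20 and Sept8 were also the introns in which Puf60.pEx5.HOM stood far above the rest. The count at ESC was 0 without Rbm38KO replicate A. At EB8 it was 5 without Puf60.pEx5.HET replicate B and 1 without Rbm38KO replicate B. At DIV7 it was 0 without either Rbm38KO library and 1 without Puf60.mEx5.HOM replicate A, Puf60.pEx5.HOM replicate B or either Puf60.pEx5.HET library.

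The change between stages was compared among the 4 edited lines with a joint test. For ESC to EB8 limma called 0 introns (0.0913% of all events), with 204 at an unadjusted p under 0.05. The count was 3 without the EB8 library of Puf60.pEx5.HET replicate A, 2 without ESC Puf60.mEx5.HOM replicate A, and 1 without ESC Puf60.pEx5.HOM replicate B or EB8 Puf60.mEx5.HOM replicate A. For EB8 to DIV7 it called 8 (0.574% of all events), with 256 unadjusted. All 8 had boundary reads over 2-fold apart. Without single libraries the count ran from 3, without EB8 Puf60.pEx5.HOM replicate B, to 12, without DIV7 Puf60.pEx5.HET replicate A. It was 4 without DIV7 Puf60.pEx5.HOM replicate B and 5 without EB8 Puf60.mEx5.HOM replicate B or the replicate A of Puf60.mEx5.HOM, Puf60.pEx5.HOM or Rbm38KO at DIV7.

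The distance of each line from WTprtl is given as a description. Averaged over the 3 stages, Puf60.mEx5.HOM lay furthest above WTprtl in Morf4l2 (19.3 points) and furthest below in Gm44692 (-15.8 points). Puf60.pEx5.HOM lay furthest above in Sept8 (36.7 points), Arhgap1 (34.2) and Nfrkb (33.4) and furthest below in Zfp715 (-18.4 points) and Meaf6 (-17.2). Puf60.pEx5.HET lay furthest above in Idnk (20.0 points) and Firre (19.5) and furthest below in Gt(ROSA)26Sor (-14.0 points). Rbm38KO lay furthest above in Firre (16.4 points) and furthest below in Platr14 (-12.9 points).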

How the data were processed

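RNA-seq of poly(A) RNA (stranded libraries with inserts of about 540 nt, per the labels' protocols) was measured in 30 libraries, 2 for each of 15 groups. The authors deposited 1 table of 661327 splicing events made with vast-tools, with a PSI in percent and a quality string of corrected inclusion and exclusion read counts per library. They also deposited an expression table with RPKM per group mean, and mm10, edgeR and Salmon 0.14.1 are named by the submitters' processing notes. Intron lengths are as deposited in the authors' table. No other step is given in the sources used here. A total of 52 columns (the authors' group PSI, 1 further call and their expression comparisons) were not used.

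The introns, gene lists and tests were chosen with earlier results of these data known. Log2((inclusion + 1)/(exclusion + 1)), taken from the reads of the quality string, was fitted with limma 3.58.1 in R 4.3.3, on 15 group means over all 30 libraries (15 residual degrees of freedom), with weights from the sampling variance plus an over-dispersion of 0.0312 and robust empirical Bayes moderation. Events with at least 10 reads in all libraries and a mean PSI of 2 to 98 entered, 38324 in all. A call needed a Benjamini-Hochberg adjusted p under 0.05 over all of them with 10 or more PSI points between the groups. There were 10 comparisons, all among the edited lines, because the WTprtl values had chosen the introns. The edited lines pass through the same stages, so that choice can still bear on the direction of stage changes. The fit had no block for the replicate letter. The deviations of same-lettered edited libraries went together at ESC, with correlations of 0.216 to 0.312 between groups. They correlated by -0.0567 to 0.148 at EB8 and by -0.11 to 0.109 at DIV7, and by -0.112 to 0.0894 across stages, so the letters were not shown to pair the samples over the whole series.

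On simulated data, 85% of changes of 15 points and 100% of changes of 30 points were recovered for EB8 over ESC. For Puf60.mEx5.HOM over Puf60.pEx5.HOM at EB8 these were 38% and 82%. There were 1 and 3 false calls among 37924 unchanged events. The simulated libraries were independent, with the fitted over-dispersion alike for all events and no effect of the replicate letter. False calls in the real data can therefore be more frequent. Splice site sequences, intron positions and transcript starts and ends come from GENCODE M21 transcripts. Host levels used log2(RPKM + 0.1).

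The rule for introns named was as follows. For each step, the 8 largest rises and falls among calls without overlap were named. For each comparison of lines, the 3 highest and 3 lowest differences and the introns called alike at 2 or more stages were taken. The rule also covered up to 3 introns for each of 12 gene lists, the 6 highest and 3 steadiest introns, the 5 genes with most introns, the events at the threshold, up to 4 introns per step of the joint test, and the 3 furthest from WTprtl each way. A few introns are not printed although the rule named them, and further list members were named after their values had been seen. Alternatives tried were other pseudocounts, filters, weights, blocks, event sets and thresholds, and leaving out each library.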

Additional observations from a re-analysis of the deposited data

Results flagged for a closer look

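The change in PSI between EB8 and DIV7 differed between the 4 edited lines in 8 retained introns (limma's joint test, Benjamini-Hochberg adjusted p over all events). That was 0.262% of the 3048 tested introns, against 0.574% of all events, so the set held no surplus of such calls. All 8 had boundary reads over 2-fold apart, and the part of this in the result was not tested. With unweighted log ratios the count was 0.

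Dlk1, an imprinted gene for a Notch-related membrane protein, differed most, with 73.58 points between the lines that changed most and least (adjusted p = 1.65e-08). Its intron 1 changed by 60.6 points in Puf60.mEx5.HOM, -10.1 in Puf60.pEx5.HOM, 39.2 in Puf60.pEx5.HET and -13.0 in Rbm38KO, against 7.8 in WTprtl. At DIV7 it stood at 93.8 and 91.4 PSI in Puf60.mEx5.HOM, 36.6 and 44.2 in Puf60.pEx5.HOM, 100.0 and 71.4 in Puf60.pEx5.HET and 33.6 and 36.4 in Rbm38KO, against 47.5 and 47.3 in WTprtl. The Dlk1 transcript differed between the lines as well, at 174 RPKM in Puf60.mEx5.HOM, 49.7 in Puf60.pEx5.HOM, 2.23 in Puf60.pEx5.HET and 34.04 in Rbm38KO at DIV7. At EB8 it was at 249 RPKM in Puf60.mEx5.HOM, 295 in Puf60.pEx5.HOM, 13.45 in Puf60.pEx5.HET and 288 in Rbm38KO. The shallowest library had 11 reads for the intron. The part of these levels in the result was not tested. Meg3, the noncoding transcript of the same imprinted region, differed by 36.13 points (adjusted p = 0.000108), with -1.9 points in Puf60.mEx5.HOM and -38.1 in Puf60.pEx5.HOM.

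The range between lines was 28.67 points in Celsr2 (adjusted p = 0.0268), 26.54 in Tpm1 (adjusted p = 0.0389), 24.9 in Adam11 (adjusted p = 0.0446), 18.48 in Add1 (adjusted p = 0.00915), 17.81 in Gabbr1 (adjusted p = 0.0384) and 16.36 in Ppp3cb (adjusted p = 0.00733). Celsr2 changed by -55.5 points in Puf60.mEx5.HOM and -84.2 in Puf60.pEx5.HOM, and Tpm1 by 48.7 points in Puf60.mEx5.HOM and 75.3 in Puf60.pEx5.HOM.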

How the results depend on the processing

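Of 2839 values of named introns under other settings 2641 kept their side of the threshold and 198 fell short of it. These settings use the same PSI differences, except for single ESC letters, so the direction could not turn in most of them. With a library left out 2637 of 2904 kept their direction and side, 267 fell short and 0 reversed. Many of these introns were named for their large differences. The cause of the shortfalls and of the moves below was not tested, except that subsets of the introns hold fewer by construction. Counts below follow the order EB8 over ESC, DIV7 over EB8, the homozygous Puf60 lines at ESC, EB8 and DIV7, Rbm38KO at the same stages, and the joint tests of the first and second step.

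A limit of 5 points gave 1687 and 1280 for the steps. Introns with even boundary reads gave 427, 317, 13, 59, 34, then 0, 0 and 0 for Rbm38KO and 0 for the second joint test. Those over 4-fold apart gave 364, 276, 23, 73 and 43. The 1399 with a low balance p in fewer than 2 libraries gave 362, 260, 7, 41, 25, then 0, 0 and 0 for Rbm38KO and 1 for the second joint test. With ESC letter A alone, the homozygous lines gave 9, Rbm38KO 0 and the first joint test 1, with letter B alone 15, 0 and 1, and letter A with even boundary reads 529, 1 and 0 for EB8 over ESC, the homozygous lines and Rbm38KO. Testing PSI itself gave 66 for the homozygous lines at ESC, 6, 5 and 6 for Rbm38KO and 29 and 30 for the joint tests. Unweighted ratios gave 27, 56 and 33, Rbm38KO 0 at EB8 and 0 at DIV7, and 0 for the second joint test. Rbm38KO gave 5 at EB8 with 0.5 reads added or a minimum of 20 reads, 1 at DIV7 with 20 reads or introns alone, 0 at DIV7 when centred, and 2 at ESC without PSI limits. The joint tests gave 5 with 20 reads, 1 for the first step when centred, 2 and 5 without PSI limits and 4 for the second with introns alone. With the replicate letter as a block the counts were 956, 704, 44, 174, 96, 1, 6, 2, 0 and 12. A replicate block within each stage gave 2 and 1 for Rbm38KO at ESC and DIV7 and 4 and 13 for the joint tests. The block within a stage, the boundary subsets, centring and single ESC letters were added after seeing the data.

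With one library left out the counts ran over 909 to 985, 673 to 720, 25 to 31, 80 to 109, 33 to 61, 0 to 1, 1 to 5, 0 to 2, 0 to 3 and 3 to 12. The median PSI with one library of a group was 9.31 or 13.43 for Puf60.mEx5.HOM, 9.09 or 12.73 for Puf60.pEx5.HOM, 9.93 or 12.79 for Puf60.pEx5.HET, 10.53 or 12.73 for Rbm38KO and 8.92 or 9.33 for WTprtl at ESC. In the same order it was 14.92 or 15.54, 15.06 or 16.81, 15.89 or 18.31, 16.33 or 16.75 and 12.2 or 14.75 at EB8, and 13.97 or 17.61, 16.28 or 17.86, 14.71 or 18.37, 14.52 or 15.56 and 16.67 or 17.04 at DIV7. With a WTprtl limit of 20 PSI the group medians were 27.26, 26.63, 26.92, 27.28 and 24.4 at ESC, 32.06, 32.26, 34.32, 33.42 and 29.34 at EB8, and 33.96, 35.53, 34.63, 33.8 and 35.4 at DIV7.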
